A study of Mus musculus with 40 samples.

Results

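A set of 9 genes that control muscle wasting and muscle growth were followed in the gastrocnemius and the quadriceps of mice. They were chosen by name, but with earlier results of these data known. The set held the ubiquitin ligases *Fbxo32*, *Trim63* and *Cblb* and the transcription factors *Foxo1* and *Foxo3*. It also held myostatin (*Mstn*) and its receptor *Acvr2b*, and the growth factor *Igf1* with its receptor *Igf1r*. Of the 9 genes, 8 were matched by Entrez gene to 1 probe set each among 16475 non-control probe sets, and *Mstn* was not analysed here. The filter on low signals, a mean intensity above 20 over the 40 arrays, left 6479 probe sets and 6 of the 8 (*Fbxo32*, *Trim63*, *Foxo1*, *Cblb*, *Acvr2b* and *Igf1*). *Foxo3* and *Igf1r* lay below it.

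RNA of both muscles was measured on Affymetrix arrays in 20 male mice of the C57BL/6J strain (written C56BL/6J in the labels), with both muscles of a mouse hybridised to an array of their own and carrying its number. Of these, 10 ate a high fat diet (HFD) and 10 a low fat diet (LFD) for 8 weeks. All had first been on low fat food for 3 weeks, begun when they were 9 weeks old, and were thus 20 weeks old when they were fasted and the muscles dissected. The 4 groups of 10 arrays were HFD gastrocnemius, HFD quadriceps, LFD gastrocnemius and LFD quadriceps, and the deposited values were signal intensities on a linear scale with a median of 8.8 to 9.4 per array. The summed signal of 10 skeletal muscle fiber genes lay between 172576 and 187658 on each of the 40 arrays, while the extraction protocol names the quadriceps for all of them, and the muscle was taken from the title and characteristics.

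Muscle mass follows the balance of protein synthesis and breakdown. IGF-1 signals through the kinases Akt and mTOR to raise synthesis, and active Akt keeps the FoxO factors out of the nucleus. When Akt activity falls, as in fasting or disuse, FoxO factors enter the nucleus and induce the ligases atrogin-1 (*Fbxo32*) and MuRF1 (*Trim63*), which mark muscle proteins for the proteasome, while myostatin and activins act through the receptor *Acvr2b* to limit muscle size.

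In the comparison of the muscles, *Acvr2b* was expressed lower in the gastrocnemius than in the quadriceps of HFD mice. Of the 6 tested genes it alone was called there by limma, at a change of more than 1.3-fold and a false discovery rate (FDR) below 0.05, a rule that called 3.46% of all tested probe sets. In LFD mice none of the 6 was called by limma, against 2.52% of all probe sets. There, 2 (*Acvr2b* and *Trim63*) had an unadjusted p under 0.05, as had 1231 of all 6479 tested probe sets. For the diet none of the 6 was called in either muscle, where 0.216% of probe sets were called in the gastrocnemius and 0.0617% in the quadriceps. At an unadjusted p under 0.05 there was 1 (*Trim63*) in gastrocnemius and 0 in quadriceps, beside 581 and 368 of all 6479 tested probe sets. The interaction of diet and muscle was called for 0% of probe sets, of which 118 had an unadjusted p under 0.05 and none of these was a member. Counts of 1 or 2 among 6 genes are too small to be read against these shares.

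Of the 7 members whose promoters were searched, *Trim63* alone held the FoxO heptamer. *Acvr2b* was the only member called between the muscles. The promoters of these genes are shown. They are the 250 bases before the transcript start in RefSeq (GRCm38.p6, plus strand in both), at chr4:134314870-134315119 for *Trim63* and chr9:119401928-119402177 for *Acvr2b*, and capitals mark the motifs.
Trim63: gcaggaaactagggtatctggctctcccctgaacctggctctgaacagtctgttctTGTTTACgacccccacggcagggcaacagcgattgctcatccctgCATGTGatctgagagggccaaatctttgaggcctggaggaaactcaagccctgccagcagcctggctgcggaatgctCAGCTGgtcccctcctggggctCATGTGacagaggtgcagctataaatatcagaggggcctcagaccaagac
Acvr2b: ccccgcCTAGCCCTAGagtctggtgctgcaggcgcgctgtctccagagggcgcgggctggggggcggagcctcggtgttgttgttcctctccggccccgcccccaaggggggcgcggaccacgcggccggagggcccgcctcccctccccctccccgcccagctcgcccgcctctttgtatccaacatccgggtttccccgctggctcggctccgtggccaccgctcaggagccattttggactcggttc
Capitals in *Trim63* are the FoxO heptamer GTAAACA, read on the opposite strand as TGTTTAC at 194 to 188 bases before the start, and 3 E-boxes (CANNTG). The E-box is a general pattern that takes in the sites of myogenic factors but is not particular to them. The capitals in *Acvr2b* are CTA and TAG with 4 bases between (GCCC), from a loose form of the MEF2 pattern that let any base stand there. As the 4 inner bases of a MEF2 site are A or T, this match is not a MEF2 site. No motif overlapped another. Both strands were searched in the 7 members with an entry (*Foxo1*, *Foxo3*, *Trim63*, *Cblb*, *Acvr2b*, *Igf1* and *Igf1r*). *Fbxo32* had no promoter entry and was not searched. The heptamer and the CTA and TAG pattern were found in 1 member each and the E-box in 4. Of 32851 promoters of the same length, 3.17% held the heptamer, 3.2% the CTA and TAG pattern and 66.2% an E-box, and a match describes letters only.

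Among the ligases, *Fbxo32* had signal intensities of 1336 to 2622 (median 1961) in HFD gastrocnemius and 1519 to 2912 (median 1983) in HFD quadriceps. In LFD mice it ranged between 1350.1 and 2456 (median 1847) in gastrocnemius and between 1613 and 2599 (median 2087) in quadriceps. The groups overlapped in both diets. Within mice the gastrocnemius was the lower muscle in 10 of 10 LFD mice and in 7 of 10 HFD mice, with log2 fold changes of -0.21 (95% interval -0.44 to 0.01, limma's adjusted p = 0.305) in LFD mice and -0.07 (-0.33 to 0.20, adjusted p = 0.876) in HFD mice.

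*Trim63* was at 3367 to 3890.4 (median 3712) in HFD gastrocnemius and at 3293 to 4234 (median 3863) in HFD quadriceps. In LFD mice it was at 3226 to 3749 (median 3403) in gastrocnemius and at 3497 to 4082 (median 3769) in quadriceps. Of the 10 LFD gastrocnemius arrays, 8 lay below all LFD quadriceps arrays, and 9 of 10 mice had the lower value in the gastrocnemius. The difference in LFD mice was small, with means of 3452 ± 171 in gastrocnemius and 3778 ± 170.0 in quadriceps (SD, n = 10 each), a log2 fold change of -0.13 (standard error 0.04) and limma's adjusted p of 0.0529. In HFD mice the log2 fold change was -0.06 (-0.16 to 0.05, adjusted p = 0.65), and 8 of 10 mice were lower in the gastrocnemius. The 2 others were mice 144 and 145, whose quadriceps signals of 3329 and 3293 were the lowest of that group, and the quadriceps array of mouse 145 also had the highest sum of neutrophil markers, whose part in this was not tested.

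Both muscles came from the same mouse, and with the mouse as a random block the adjusted p of limma in LFD mice was 0.00792 for *Trim63*, 0.0124 for *Acvr2b* and 0.0791 for *Fbxo32*. With the mouse as a fixed block it was 0.0394 for *Trim63*, 0.0178 for *Acvr2b* and 0.0325 for *Fbxo32*. All 3 stayed under a fold change of 1.3 in LFD mice, so that none was called with the block.

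*Cblb* encodes a ligase that targets the insulin receptor substrate. Its signals lay at 16.9 to 30.6 (median 25.8) in HFD gastrocnemius, 19.3 to 27.4 (median 24.5) in HFD quadriceps, 18.8 to 31.7 (median 24.6) in LFD gastrocnemius and 19.8 to 34.2 (median 25.9) in LFD quadriceps. These are close to the filter of 20, the 4 groups overlapped, and the log2 fold changes between the muscles were 0.05 (-0.15 to 0.25) in HFD mice and -0.02 (-0.23 to 0.19) in LFD mice, with adjusted p of 0.887 and 0.951 by limma.

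**Figure D1:**
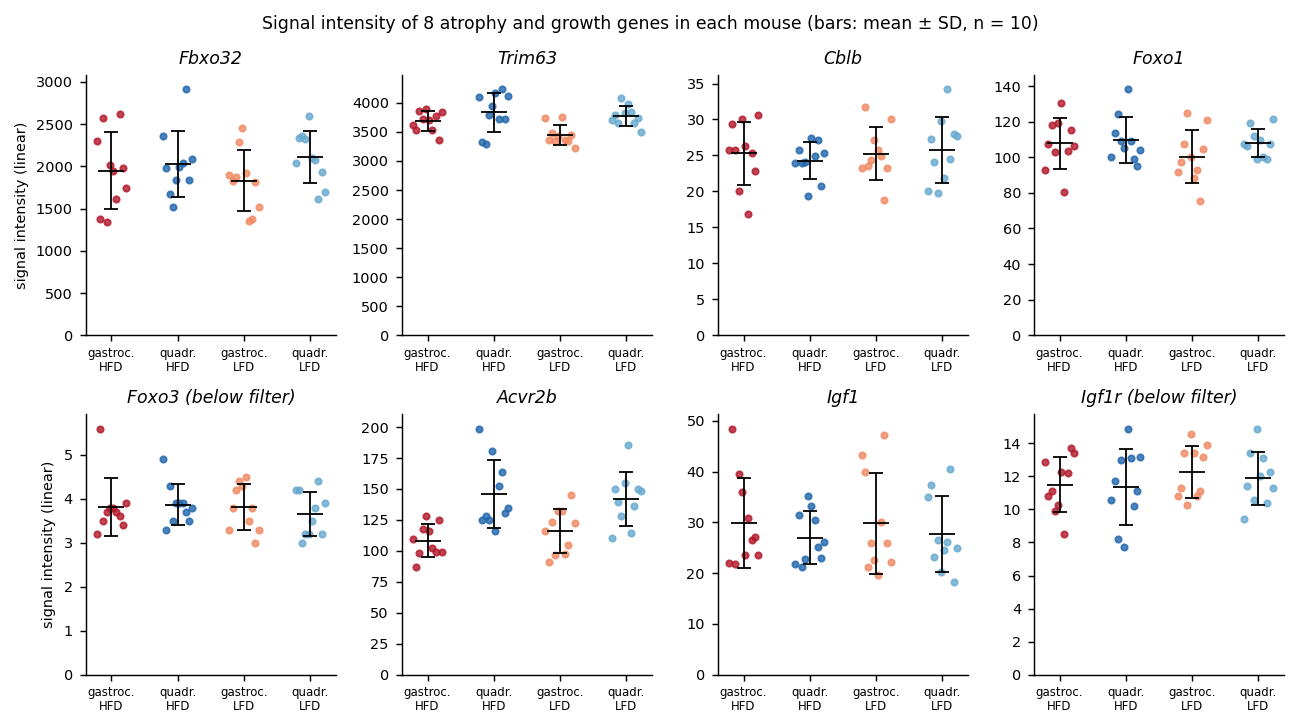
Signal intensity (linear) of the 8 genes with a probe set in the 4 groups, 1 point per mouse, with mean ± SD as bars (n = 10). *Acvr2b* averaged 108 in gastrocnemius and 146 in quadriceps of HFD mice, and 116 in gastrocnemius and 142 in quadriceps of LFD mice, and in all 8 genes the ranges of the 4 groups overlap.

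Of the FoxO factors, *Foxo1* was at 80.6 to 131 (median 107) in HFD gastrocnemius and at 95.2 to 138 (median 107) in HFD quadriceps. In LFD mice it was at 75.7 to 125 (median 98.8) in the gastrocnemius and at 99.0 to 121 (median 107) in the quadriceps. There, 5 gastrocnemius arrays lay below all quadriceps arrays and 1 lay above them, and the gastrocnemius was lower in 8 of 10 mice. The log2 fold change was -0.12 (-0.27 to 0.04, limma's adjusted p = 0.439) in LFD mice and -0.03 (-0.20 to 0.13, adjusted p = 0.914) in HFD mice. *Foxo3* was at 3.0 to 5.6 on all 40 arrays, below the median of each array, where a fold change depends on the background.

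*Acvr2b*, which binds myostatin and activins together with a type I receptor, was at 87.1 to 128 (median 106) in HFD gastrocnemius and at 116 to 199 (median 133) in HFD quadriceps. In HFD mice the gastrocnemius was the lower muscle in 10 of 10 mice, and 7 gastrocnemius arrays lay below all quadriceps arrays. The means were 108 ± 13.2 in gastrocnemius and 146 ± 27.5 in quadriceps (SD, n = 10 each), the log2 fold change being -0.42 (95% interval -0.61 to -0.22, standard error 0.10), which is a signal 1.33-fold lower (limma's adjusted p = 0.00884). As the RNA is of whole muscle, fewer cells that express a gene and less of its RNA per cell cannot be told apart. The size of the change lies close to the threshold. Without mouse 143, whose quadriceps had the highest *Acvr2b* signal (199), the log2 fold change was -0.37 and no longer over 1.3-fold (adjusted p = 0.0215 by limma).

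In LFD mice *Acvr2b* was at 90.9 to 145 (median 119) in gastrocnemius and at 111 to 186 (median 144) in quadriceps. It was lower in the gastrocnemius of 9 of 10 mice, with means of 116 ± 18.02 in gastrocnemius and 142 ± 21.7 in quadriceps (SD, n = 10 each), a log2 fold change of -0.29 (-0.49 to -0.09) and limma's adjusted p of 0.085. The interaction, which tests whether the difference depends on the diet, had a log2 value of -0.13 (-0.41 to 0.15, adjusted p of 1.0). The means were thus ordered, low to high, as HFD gastrocnemius, LFD gastrocnemius, LFD quadriceps and HFD quadriceps. The 2 diets of a muscle differed by less than the spread between mice, and LFD gastrocnemius and LFD quadriceps, the neighbours in the middle, differed by an amount that did not pass the test without the block.

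Some markers of other cells and fibers moved with this difference. None of the 4 tested macrophage and 4 tested endothelium genes was called in either diet. Of 10 skeletal muscle fiber genes 1, the fast myosin *Myh2*, was called higher in the gastrocnemius of both diets, with log2 fold changes of 0.49 in HFD and 0.44 in LFD mice (limma's adjusted p = 0.0044 and 0.0345). Of 8 tested slow fiber genes 7 were called higher in the gastrocnemius in both diets, with sums of 9046 to 14688 in HFD gastrocnemius, 411 to 6974 in HFD quadriceps, 8051 to 15008 in LFD gastrocnemius and 526 to 8318 in LFD quadriceps. Of 6 tested adipocyte genes, 1 was called lower in the gastrocnemius of HFD mice and 3 in that of LFD mice. Their sums were 5702 to 11380.2 in HFD gastrocnemius, 6992 to 11714 in HFD quadriceps, 5699 to 7517 in LFD gastrocnemius and 6558 to 11180.2 in LFD quadriceps. The 7 neutrophil genes summed to 34.8 to 40.7 in HFD gastrocnemius, 32.6 to 12733 in HFD quadriceps, 32.9 to 41.1 in LFD gastrocnemius and 31.3 to 2552 in LFD quadriceps, and 3 of the 5 tested were called lower in the gastrocnemius of HFD mice and none in that of LFD mice. All 7 averaged under 20 in the gastrocnemius of both diets, *Elane* did so in the quadriceps of both diets and *Ltf* in that of LFD mice. Of 5 tendon genes, 2 were called higher in the gastrocnemius of HFD mice and 1 in that of LFD mice, with sums of 2713 to 3982 in HFD gastrocnemius, 1939 to 3333 in HFD quadriceps, 2673 to 3836 in LFD gastrocnemius and 2256 to 2803 in LFD quadriceps. The log2 fold change was negative for 1 of the 5 tendon genes in each diet. Of 5 fibroblast genes, *Col3a1* was called lower in the gastrocnemius of HFD mice and none was called in LFD mice, while *Col3a1* and *Lum* passed the FDR as lower in both diets. The log2 fold change was negative for 3 of the 5 fibroblast genes and positive for 2 in each diet, so that the list did not move as a whole. The fibroblast genes had sums of 3393 to 6682 in HFD gastrocnemius, 4135 to 6762 in HFD quadriceps, 4067 to 5835 in LFD gastrocnemius and 4322 to 6005 in LFD quadriceps. With the mouse as a random block limma also called the slow fiber gene *Myl3*, the tendon gene *Scx*, the adipocyte gene *Cfd* and the neutrophil gene *S100a9* in LFD mice, and with it as a fixed block *Myl3* and *Cfd* in LFD mice and *Adipoq* and *Cfd*, but not the neutrophil gene *Camp*, in HFD mice. The part of these cells and fibers in the difference of *Acvr2b* was not tested.

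**Figure D2:**
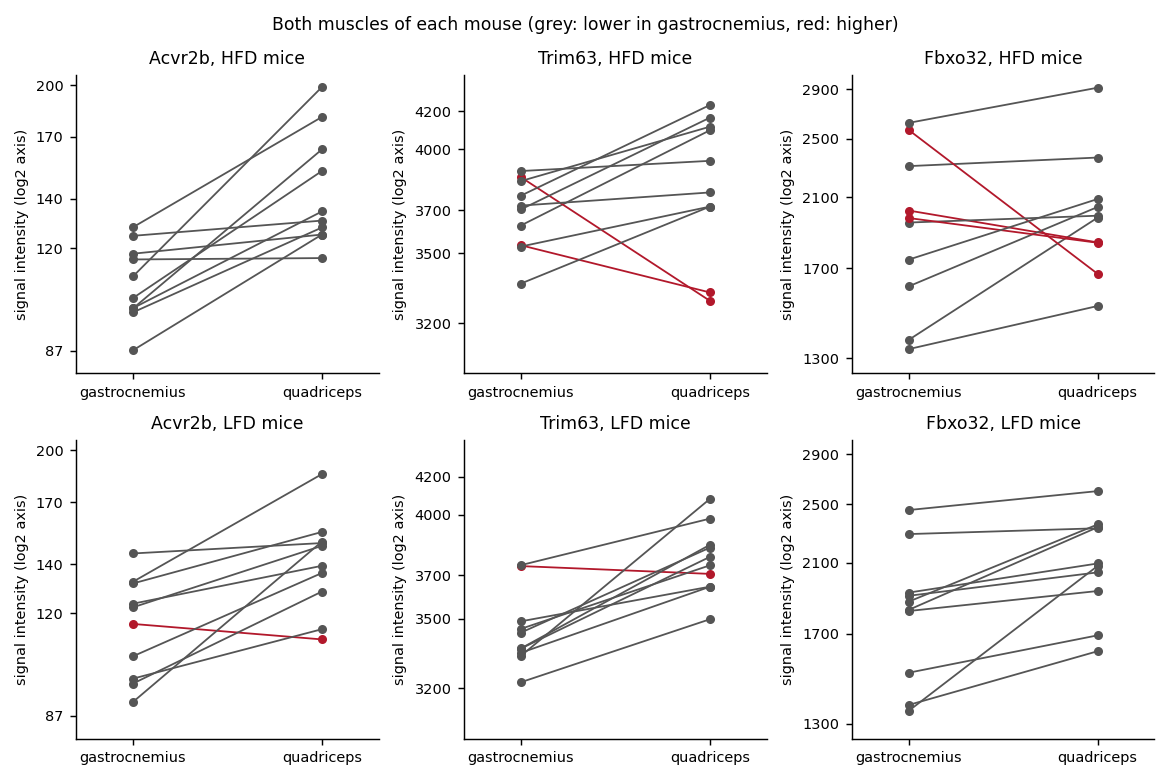
Signal intensity (log2 axis) of *Acvr2b*, *Trim63* and *Fbxo32* in the gastrocnemius and quadriceps of HFD mice (upper row) and LFD mice (lower row), with a line for each of the 10 mice. *Acvr2b* was lower in the gastrocnemius of 10 HFD and 9 LFD mice, *Trim63* in 8 and 9, and *Fbxo32* in 7 and 10.

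*Igf1* encodes a growth factor that muscle itself makes, beside the liver. It was at 21.7 to 48.5 (median 26.9) in HFD gastrocnemius, 21.2 to 35.2 (median 25.7) in HFD quadriceps, 19.6 to 47.3 (median 26.0) in LFD gastrocnemius and 18.3 to 40.6 (median 25.6) in LFD quadriceps. The medians of the 4 groups thus lay between 25.6 and 26.9, while the mice of each group spread far more widely, most of all in LFD gastrocnemius. The log2 fold changes between the muscles were 0.12 (-0.18 to 0.42, limma's adjusted p = 0.756) in HFD mice and 0.08 (-0.28 to 0.45, adjusted p = 0.872) in LFD mice, with intervals that reach beyond a fold change of 1.3. *Igf1r* was at 7.7 to 14.9 on all arrays, near the array medians, and its log2 fold changes lay between -0.10 and 0.05 in the comparisons of muscle and of diet.

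For the diet, the largest of the 6 changes by p was that of *Trim63* in the gastrocnemius, with 3685 ± 169 in HFD and 3452 ± 171 in LFD mice (SD, n = 10 each). Of the HFD arrays 4 lay above all LFD arrays, and the log2 fold change was 0.09 (0.01 to 0.18), with limma's adjusted p of 0.473. The adjusted p of the 6 genes were 0.473 to 0.998 for the gastrocnemius and 0.998 for the quadriceps. In both muscles the 95% intervals of the 6 genes for the diet lay within -0.35 and 0.36 on the log2 scale, so that a change of 1.3-fold (0.38) lay outside them at 8 weeks. By the interaction limma's adjusted p was 1.0 for each, and the widest interval, that of *Igf1*, ran from -0.44 to 0.51.

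**Figure D3:**
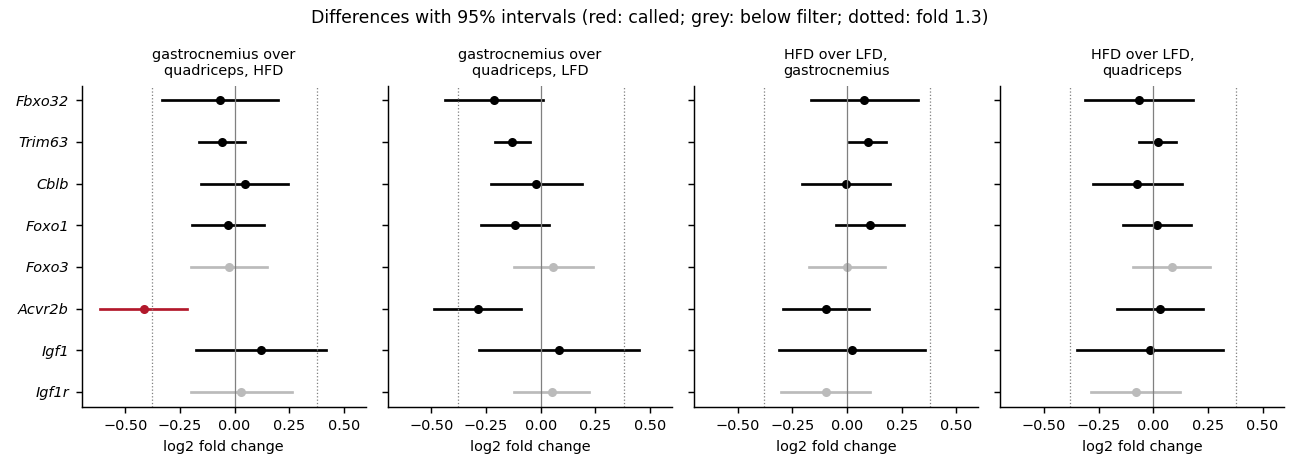
Log2 fold change (point) with its 95% interval (line) for 8 genes in 4 comparisons. *Acvr2b* in HFD mice (-0.42, red) is called, the genes below the filter are grey, and the dotted lines mark a fold change of 1.3.

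Beyond the members, 27 tested genes of ubiquitin ligases and FoxO targets were examined, and 2 of them, *Gadd45a* and *Sesn1*, were called lower in the gastrocnemius of both diets by the fold and FDR, and none was called higher, where 3.46% of all probe sets were called in HFD and 2.52% in LFD mice. *Gadd45a*, a stress-induced gene that also marks wasting muscle, was at 99.5 ± 22.4 in gastrocnemius and 170.0 ± 30.9 in quadriceps of HFD mice (SD, n = 10 each). Its log2 fold change was -0.78 (standard error 0.13) in HFD and -0.69 (0.11) in LFD mice (limma, adjusted p = 0.000497 in HFD and 0.000561 in LFD mice), and it was lower in 10 of 10 mice in each diet. *Sesn1* encodes a sestrin that restrains mTOR. It had log2 fold changes of -0.42 in HFD mice (171 ± 27.6 in the gastrocnemius, 230.3 ± 47.1 in the quadriceps) and -0.41 in LFD mice (162 ± 24.1 in the gastrocnemius, 214 ± 25.6 in the quadriceps), with adjusted p of 0.0261 and 0.00889. In HFD mice the adjusted p of *Sesn1* rose above 0.05 without mouse 143, 144, 146 or 151 (0.0655 to 0.0826), and in LFD mice its fold change fell under 1.3 without mouse 156, at -0.35, and with log2(intensity + 16), at -0.37 (adjusted p = 0.00706 by limma).

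A further 4 genes of that list, named after their values were seen, passed the FDR in HFD mice at fold changes under 1.3. The FDR alone passed 429 of all 6479 tested probe sets in HFD mice and 338 in LFD mice. *Map1lc3b*, which coats autophagosomes, was at 1420.0 ± 97.9 in gastrocnemius and 1681 ± 51.6 in quadriceps of HFD mice, and the lysosomal protease *Ctsl* at 1437 ± 45.3 in gastrocnemius and 1701 ± 149.9 in quadriceps. For both, the 10 gastrocnemius arrays of HFD mice did not overlap with the 10 quadriceps arrays, and the log2 fold changes were -0.25 and -0.24 (limma, adjusted p = 0.000712 and 0.00268). The share of all tested probe sets without such an overlap was not counted. The kinase *Ulk1*, which starts autophagy, and the transcription factor *Klf15*, which glucocorticoids induce, both had a log2 fold change of -0.35 there, with adjusted p of 0.0259 and 0.0393. In LFD mice *Map1lc3b* and *Ctsl* passed the FDR again, with -0.19 and -0.22 (adjusted p = 0.0135 and 0.0432). *Klf15* had a log2 fold change of -0.39 in LFD mice and an adjusted p of 0.111, and with the mouse as a block limma called it lower there too (adjusted p = 0.011 with a random and 0.00115 with a fixed block). The median log2 fold change of the list was -0.04 in HFD and -0.07 in LFD mice, beside -0.02 and -0.01 for all tested genes.

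Of 9 tested genes of myostatin and activin signaling none was called in either diet, and 1 in each diet had an unadjusted p under 0.05 by limma. Of all 6479 tested probe sets, 1209 had such a p in HFD and 1231 in LFD mice. The smallest adjusted p in LFD mice was that of the activin receptor *Acvr2a*, at 46.5 ± 13.3 in gastrocnemius and 63.9 ± 18.7 in quadriceps, which was lower in the gastrocnemius of 10 of 10 mice with a log2 fold change of -0.46 (-0.80 to -0.12, limma's adjusted p = 0.115). This fit leaves out that the muscles are paired by mouse, and with the mouse as a block *Acvr2a* was called lower in LFD mice (adjusted p = 0.0126 with a random and 0.00215 with a fixed block). In HFD mice *Acvr2a* was at -0.17 (-0.59 to 0.24, adjusted p = 0.75). *Smad4*, the shared partner of the receptor-activated Smads, followed in LFD mice with -0.09 (adjusted p = 0.326). In HFD mice the smallest adjusted p were 0.24 for *Dcn* (decorin, a matrix protein that binds myostatin), with a log2 fold change of 0.13, and 0.371 for *Tcap* (the Z-disc protein telethonin), with 0.12. The list had medians of 0.09 in HFD and -0.03 in LFD mice, and 14 further genes of it, among them *Fst* and *Acvr1b*, lay below the filter.

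Of 27 tested genes of IGF, Akt and mTOR signaling, *Deptor* was called lower in the gastrocnemius of HFD mice, none was called in LFD mice, and none was called higher in either diet. Of all tested probe sets 3.46% were called in HFD and 2.52% in LFD mice, and a count of 1 is too small to be read against these shares. *Deptor*, which binds and inhibits mTOR, was at 533 ± 48.4 in gastrocnemius and 712 ± 111 in quadriceps of HFD mice, with 9 gastrocnemius arrays below all quadriceps arrays, a log2 fold change of -0.41 (standard error 0.08) and limma's adjusted p of 0.00191. Without mouse 144 it was -0.36 and thus under 1.3-fold (adjusted p = 0.00426). In LFD mice *Deptor* was at 563 ± 61.8 in gastrocnemius and 713 ± 91.8 in quadriceps, and its log2 fold change of -0.34 passed the FDR (adjusted p = 0.0107) but not the fold. *Eif4ebp1*, a repressor of translation that mTOR inactivates, had log2 fold changes of 0.19 in HFD and 0.20 in LFD mice, with adjusted p of 0.0427 and 0.0378, again under 1.3-fold. The median of the list was -0.03 in both diets. The slow fiber and adipocyte sums given with *Acvr2b* also differed between the muscles in both diets. The neutrophil sum had medians of 38.0 in gastrocnemius and 1258.6 in quadriceps of HFD mice, but 38.35 and 38.95 in LFD mice. The part of these cells and fibers was not tested.

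**Figure D4:**
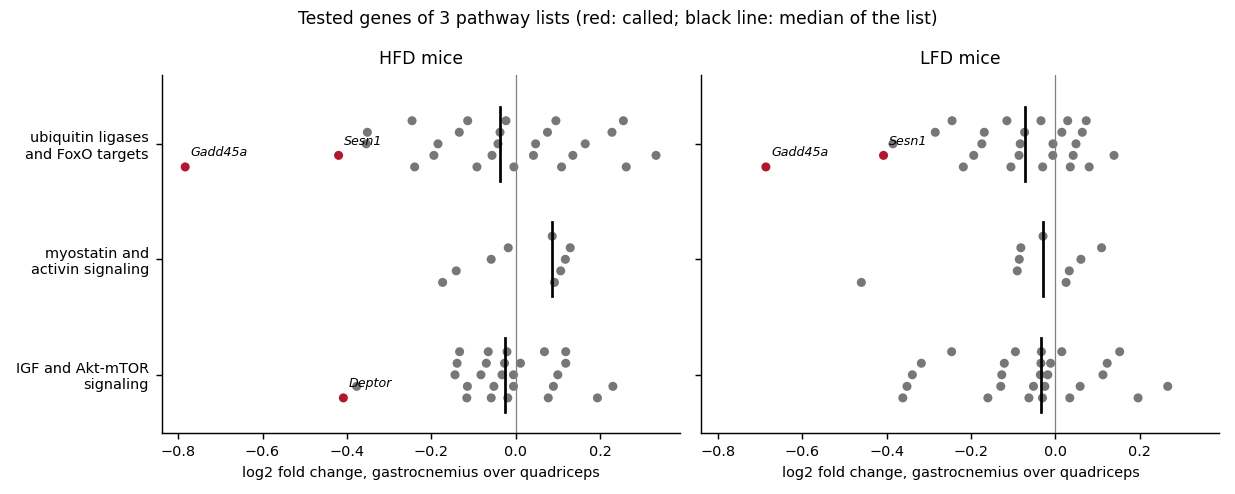
Log2 fold change of gastrocnemius over quadriceps for the tested genes of 3 pathway lists (27, 9 and 27 genes) in HFD and LFD mice, with called genes in red and the median of each list as a black line. *Gadd45a* lies lowest in both diets, at -0.78 and -0.69.

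No gene of the 3 lists was called for the diet, although some changes were over 1.3-fold. In the IGF list the log2 fold changes ran from -0.13 to 0.80 in the gastrocnemius and from -0.21 to 0.43 in the quadriceps. *Sesn3* was at -0.58 in the quadriceps (95% interval -1.05 to -0.12). At an unadjusted p under 0.05 by limma there was 1 ubiquitin and FoxO gene and 1 IGF gene in the gastrocnemius, and 2 and 1 in the quadriceps. Of all 6479 tested probe sets, 581 had such a p in the gastrocnemius and 368 in the quadriceps. In the gastrocnemius the smallest adjusted p by limma were 0.229 for the autophagosome gene *Gabarapl1*, at 587 ± 54.7 in HFD and 511 ± 46.9 in LFD mice, and 0.23 for the translation factor *Eif4e*, at 152 ± 8.05 in HFD and 167 ± 13.1 in LFD mice. For *Mtor* and *Gadd45a* they were 0.575 and 0.736. In the quadriceps they were 0.69 for *Fbxo21* and *Sesn3* and 0.863 for *Eif4e*. In the myostatin list the smallest were 0.836 for *Acvr2a* and 0.874 for *Smad7* in the gastrocnemius and 0.998 for *Tcap* and *Ltbp3* in the quadriceps. The interaction was called for no gene of the lists, with adjusted p of 1.0 throughout, and none of them had an unadjusted p under 0.05.

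The mice of a group differed more in some members than in others. The coefficient of variation was 4.50% to 8.72% for *Trim63*, 7.16% to 14.7% for *Foxo1*, 12.2% to 18.9% for *Acvr2b*, 10.6% to 17.7% for *Cblb*, 14.7% to 23.1% for *Fbxo32* and 19.1% to 33.6% for *Igf1* over the 4 groups. Whether members vary together was examined over 20 mice in each muscle, after each diet was centred on its mean (log2), for 15 pairs of members and 30 correlations in all. None passed a permutation test after Benjamini-Hochberg adjustment over the 30 (smallest adjusted p of 0.168).

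The ligases *Fbxo32* and *Trim63* had a correlation of 0.55 in the quadriceps (Pearson; Spearman's rho 0.58, permutation p = 0.0168 and 0.011), which was 0.57 in HFD and 0.56 in LFD mice and 0.51 without mice 146 and 152. In the gastrocnemius their correlation was 0.32 (rho 0.42, permutation p = 0.184 and 0.077). *Fbxo32* and *Igf1* had a negative correlation in the gastrocnemius, with r of -0.56 and rho of -0.52 (permutation p = 0.0125 and 0.0207). It was -0.40 without mice 144 and 146, and -0.14 in the quadriceps (rho -0.09). With 6478 tested genes ranked from the highest r down in the gastrocnemius, *Igf1* had rank 6295 for *Fbxo32*. *Fbxo32* had rank 5599 for *Igf1*, so that many tested genes had a more negative r with *Igf1*. *Foxo1* and *Cblb* had r of 0.55 and rho of 0.40 in the gastrocnemius (permutation p = 0.014 and 0.0921), which rests on mice 151 and 156, since r was 0.14 without them. *Foxo1*, whose protein induces both ligases, had r with *Trim63* of -0.07 in gastrocnemius and -0.25 in quadriceps, and with *Fbxo32* of 0.31 and -0.25. The signals are of RNA, and the activity of FoxO proteins was not measured on these arrays.

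Between the muscles of a mouse, some members had a high correlation. None passed the permutation test after adjustment over all tested genes (smallest adjusted p of 0.089, for *Igf1*). *Igf1* had r of 0.69 between the gastrocnemius and the quadriceps of 20 mice (rho 0.64, permutation p = 0.00184 and 0.00474), higher than 98.2% of tested genes. In LFD mice the 3 mice 141, 142 and 156 had 43.2, 40 and 47.3 in the gastrocnemius and 35.1, 37.4 and 40.6 in the quadriceps, while the 7 others lay at 19.6 to 30.0 in gastrocnemius and at 18.3 to 26.5 in quadriceps. The correlation was 0.44 in HFD mice, 0.84 in LFD mice and 0.59 without mice 144 and 156.

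*Fbxo32* followed with r of 0.60 (rho 0.54, permutation p = 0.00734 and 0.0201), which was 0.48 in HFD mice, 0.77 in LFD mice and 0.56 without mice 144 and 146. Mouse 152 had the highest *Fbxo32* signal of the HFD mice in both muscles (2622 and 2912), mouse 146 the lowest (1336 and 1519), and mouse 153 the highest of the LFD mice (2456 and 2599). For *Foxo1* r was 0.52 (rho 0.41, permutation p = 0.0219 and 0.0788), with 0.43 in HFD mice, 0.68 in LFD mice and 0.58 without mice 151 and 156. *Acvr2b*, *Trim63* and *Cblb* had r of 0.33, 0.24 and 0.13, beside a median of 0.17 over the 6479 tested genes (quartiles 0.01 and 0.32). With adjustment over all tested genes the p was 0.089 for *Igf1*, 0.196 for *Fbxo32* and 0.306 for *Foxo1*, and 98 of the 6479 genes passed 0.05.

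**Figure D5:**
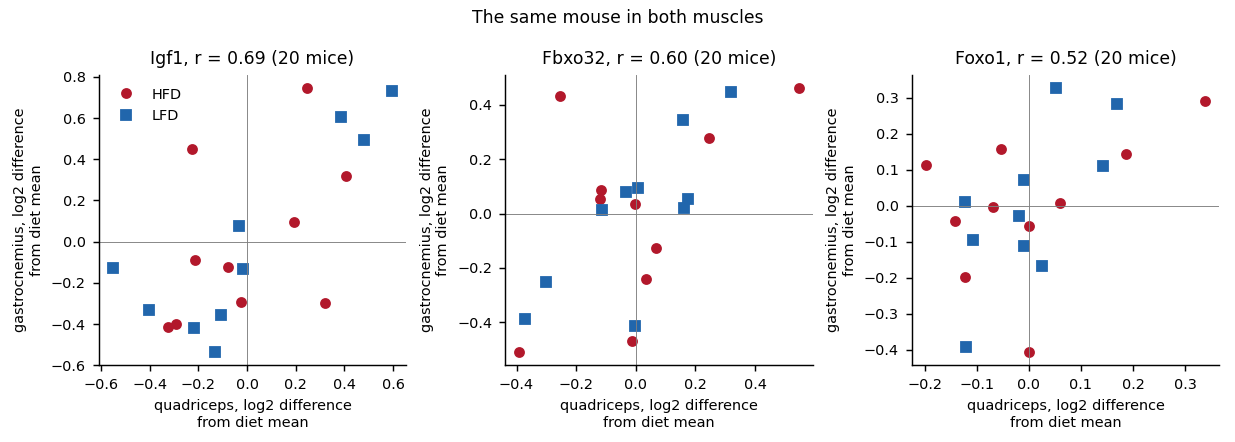
Difference of each mouse from the mean of its diet (log2) in the quadriceps (horizontal) and the gastrocnemius (vertical) for *Igf1*, *Fbxo32* and *Foxo1*, with HFD mice as circles and LFD mice as squares. The correlations are 0.69, 0.60 and 0.52 over 20 mice.

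The genes most like each member over the 20 mice differed between the muscles. For *Fbxo32* they were *Mgat1* (r = 0.91) and *Tpr* (0.81) in the gastrocnemius, and *Slc16a9* (0.77) and *Psmd12*, a proteasome subunit (0.75), in the quadriceps. *Igf1* was closest to *Ucp3*, a mitochondrial uncoupling protein (0.89), and *Msrb1* (0.86) in the gastrocnemius and to *Usp4* (0.82) and *Cbr2* (0.78) in the quadriceps. *Foxo1* ran with *Plpp3* (0.87) in the gastrocnemius and with *2410006H16Rik* (0.78) and *Pias1* (0.75) in the quadriceps. For *Acvr2b* they were *Inmt* (0.78) and *Hdac5* (0.75) in the gastrocnemius, and *Lamb2* (0.76) and the sodium channel subunit *Scn4b* (0.72) in the quadriceps. *Cblb* had *Pls3* (0.83) and *Aco1* (0.77) in the gastrocnemius, and *Rad1* (0.79) and *Rnf103* (0.78) in the quadriceps. *Trim63* had the lowest likeness, with *Fam193b* (0.65) and *Inka1* (0.64) in the gastrocnemius and *Medag* (0.66) and *Irak1* (0.64) in the quadriceps. These are the 2 largest of 6478 correlations for each member and muscle, apart from *Foxo1* in the gastrocnemius, where only the largest is given, and they are a description with no test.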

How the data were processed

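Per the sources, the authors hybridised RNA of each muscle to Affymetrix arrays, remapped the probes by Entrez gene to give each gene 1 probe set, and obtained expression estimates by quantile normalization and GCRMA, whose version and parameters are not given in the sources used here. GCRMA subtracts a background modelled from the base content of the probes, so that genes near background carry little information. The deposited values are linear signal intensities for 16539 probe sets, and the 64 control probe sets were not used. Probe sets were named through RefSeq (16229) or the platform annotation alone (28), and 218 had no name.

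Deposited intensities were log2 transformed. Probe sets with a mean over 20 (6479, 39.3%; 38.4% to 39.5% of an array) entered limma (3.58.1, R 4.3.3), which compared the muscles within each diet, and the diets and the interaction in 1 fit of all 4 groups. Genes with a change above 1.3-fold and an FDR (Benjamini-Hochberg, over all tested probe sets) below 0.05 were called, and interactions by FDR alone. *Foxo3* and *Igf1r* were adjusted over all 16475 probe sets. The mice are separate animals, and 10 arrays per group limit the precision. No 2 arrays held identical values. Deviations from the group means were shared by the muscles of a mouse in LFD mice (median correlation of 0.388, against -0.053 between mice) and not in HFD mice (-0.069, against -0.006). The main tests have no block, and both muscles come from the same mouse, so that blocked fits are given as alternatives.

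Correlations used log2 values centred on the diet mean, with 100000 permutations within diets (scipy 1.17.1, numpy 2.4.6 and pandas 2.3.3 in Python 3.11.15, with figures by matplotlib 3.10.9). Those between muscles were adjusted over all tested genes in place of the 6 members planned. The fits were tested on simulated data. The named genes are the members, the called genes of 3 pathway lists (at most 6 per list and comparison, or the 2 with the smallest adjusted p), the 2 genes most like each member, and marker genes that moved with a result, apart from the 4 said to be named later. One gene that the rule names is not reported here. The members, lists and rules were chosen with earlier results of these data known. Alternatives were the signal filter, a log2 offset, repeated normalization, the variance model, the call rule, the mouse as a block, the arrays fitted and leaving out each mouse.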

Additional observations from a re-analysis of the deposited data

Results flagged for a closer look

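*Foxo3* in the gastrocnemius of HFD mice had 1 array apart from the other 9. Mouse 144 was at a signal intensity of 5.6, and the next highest mouse at 3.9. It was the only one of 32 groups of 10 arrays (8 genes in 4 groups) in which the highest or lowest mouse stood apart by Dixon's ratio on the log2 scale, and chance flags about 1 in 20 groups. All *Foxo3* signals lie below the array medians. No member differed between the diets in its muscle difference by the test of the interaction.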

How the results depend on the processing

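Of 722 refits of the members under the alternatives, 720 kept the call or its absence, and none turned the direction of a called gene. Most of these were refits of genes without a call, and only the 19 refits of *Acvr2b* in HFD mice could lose one. Of these 19, 2 lost it. *Acvr2b* fell under 1.3-fold with log2(intensity + 16), at -0.37 (limma's adjusted p = 0.00831), and without mouse 143. The count of members called in HFD mice was thus 0 with that offset and 0 to 1 when a mouse was left out. With the mouse as a replicate block the genes called between the muscles were 225 (random) and 219 (fixed) in LFD mice, against 163 without it, and 223 and 233 in HFD mice, against 224, and the block changed no call of a member. Among the genes of the pathway lists either block, an alternative chosen for the lists after seeing the data, added *Acvr2a* and *Klf15* in LFD mice and changed no other call between the muscles. With the FDR alone the genes called were 429 between the muscles in HFD mice, 338 in LFD mice, 44 for the diet in the gastrocnemius (14 with the fold) and 12 in the quadriceps (4 with the fold). With the 20 quadriceps arrays alone it was 1. Leaving out a mouse gave 191 to 236 genes between the muscles in HFD mice and 127 to 216 in LFD mice, 9 to 19 for the diet in the gastrocnemius and 1 to 10 in the quadriceps. The count of 4 in the quadriceps moved by over 1.5 times without mouse 141, 142, 143, 144, 145, 151, 152 or 156, and that of 14 in the gastrocnemius without mouse 154. The interaction gave 0 throughout. *Cblb*, *Igf1* and *Foxo3* lie near the background, where the offset and the filter weigh most, and small signs of *Cblb*, *Igf1*, *Foxo1* and *Acvr2b* turned in some refits of comparisons in which they were not called. The cause was not tested.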
